A study of Rattus norvegicus with 10 samples.

Results

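The cytochrome P450 genes encode haem enzymes that insert oxygen into fatty acids, steroids, retinoids, sterols and foreign chemicals, and they are measured here in a rat salivary gland, the submandibular gland. They were taken by name: every gene with an array probe whose symbol has the form Cyp, family number, subfamily letter and gene number, such as Cyp2j10. This gave 67 genes among the 15168 named genes on the array, and 60 of them were bright enough to be tested among 14711 tested genes. Each gene was represented by the probe with the highest mean signal over the arrays, and the 9 genes with several probes were checked on the others. Families with a number of several digits (Cyp11, Cyp26 and the like) were counted in. A narrower reading with a one-digit family and a single letter holds 54 genes.

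The arrays came from 10 male rats aged 14 weeks, 1 one-colour Agilent gene expression array for each rat. The hypertensive group held 5 spontaneously hypertensive rats (SHR), inbred for blood pressure that climbs with age, and 5 were Wistar-Kyoto rats (WKY), the normotensive control strain, matched for age and weight. The labels name no treatment, and strain is the only difference between the groups that they give. The strains differ across the genome as well as in blood pressure, each was sampled at a single age, and only males were used. Arrays carry the strain and number of their title, for example SHR 3-3.

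As background, a P450 takes electrons from NADPH through a reductase, or through ferredoxin in mitochondria, and its family number tells roughly what it acts on. Cyp2j and Cyp2c enzymes make epoxides of arachidonic acid, many of which relax blood vessels, and Cyp4 enzymes hydroxylate the end of the fatty acid chain, giving among others a product that constricts small arteries. Other families make or break down steroid hormones, retinoic acid, vitamin D and bile acids. The families that handle drugs are best known from the liver, while many fatty acid and steroid P450 genes are also used in other tissues.

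Cyp2j10, Cyp11b3, Cyp4f17 and Cyp26a1 were lower in SHR and Cyp4f5 was higher, at an adjusted p under 0.05 (limma, two-sided, Benjamini-Hochberg over the 14711 genes). The 4 lower genes are 6.67% of the 60 tested, where 2.85% of all tested genes (419) were lower. The 1 higher gene is 1.67%, against 1.51% of all tested genes (222). In 3 members every SHR array lay below every WKY array (5.0%, against 4.11% of all tested genes) and in 1 every SHR array lay above (1.67%, against 3.14%). Apart from the lower calls these shares lie near those of all genes, and 4 genes give only a coarse share. Of the lower genes, Cyp11b3 and Cyp26a1 fall outside the narrower reading, so the share of lower calls depends on the reading used. The median difference between strains, SHR minus WKY on the log2 scale, was −0.10 over the 60 members and −0.02 over all tested genes. A negative difference was found in 40 members (66.7%), against 53.4% of all tested genes. Both measures moved with the processing: 33 members were negative with the authors' deposited values (median −0.05) and with normexp background correction (median −0.05), and 34 with quantile normalisation (median −0.06). With the slide as a fixed block 23 were negative and the median was 0.04. Over all tested genes the median was 0.02 with the authors' values, 0.01 with normexp, 0.01 with quantile normalisation and 0.03 with the block.

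Of the 55 members that did not pass, 36 had a negative and 19 a positive difference, from −1.54 for Cyp39a1 to 0.26 for Cyp4a8. For 52 of them the 95% interval of the difference lay within 2-fold in either direction, and for 37 within 1.5-fold. The intervals of Cyp26b1, Cyp4a1 and Cyp39a1 went beyond 2-fold, so these arrays do not bound their difference at that size. The spread between animals of a strain (SD of log2 values) had a median over the tested members of 0.24 in SHR and 0.18 in WKY. It was above 0.5 in at least 1 strain for Cyp26b1, Cyp2j10, Cyp4a1, Cyp39a1, Cyp7b1 and Cyp2f4.

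**Figure D1:**
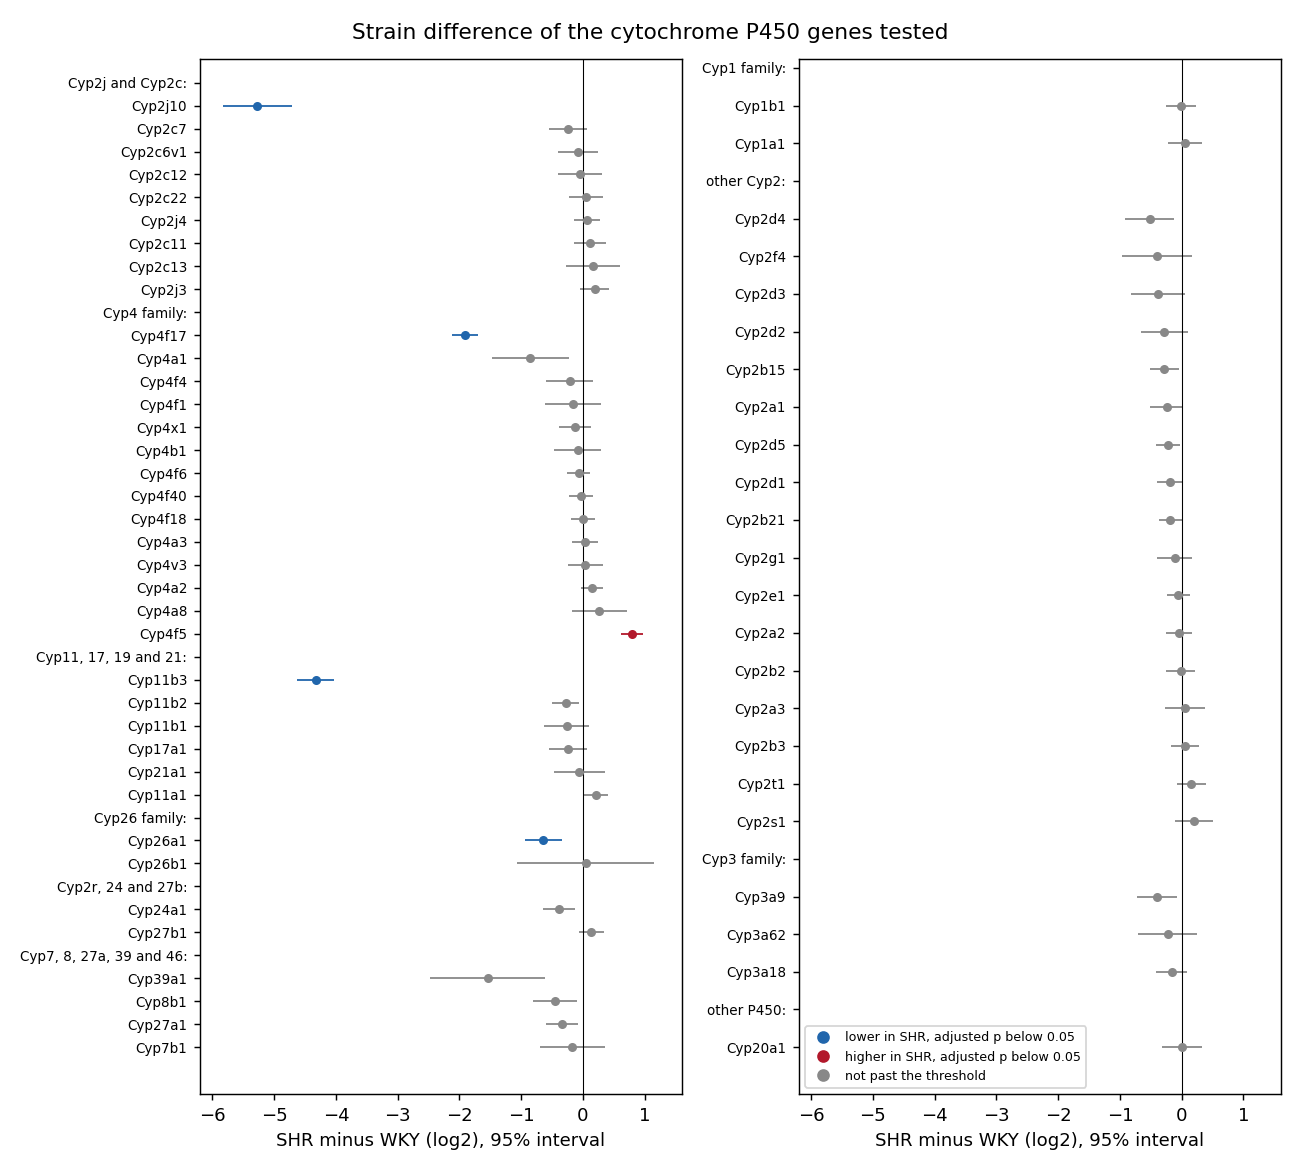
Difference between strains (SHR minus WKY, log2 scale, x axis) for each of the 60 tested P450 genes, ordered by role group; points are limma estimates and bars their 95% intervals, with 5 arrays a strain. Cyp2j10 (−5.27) and Cyp11b3 (−4.33) lie far to the left, Cyp4f17 (−1.91) and Cyp26a1 (−0.64) are also lower, and Cyp4f5 (0.79) is the single gene that was higher.

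Every value below is a log2 processed signal after subtraction of the array's own 75th percentile, so 0 means the brightness of that percentile. A probe was called above background by the scanner software's own test. Levels of different genes come from different probes and are not compared. Bulk tissue was measured, so fewer cells of a type and less RNA per cell cannot be told apart. All arrays had 42877 spots, 94.8% to 97.7% of them above background and 0 saturated. Arrays that share a scan time in the file headers are called a slide here, and no slide label was read. There were 3 such groups. Slide 1 held SHR 2-3, 3-1, 3-3 and 3-4. Slide 2 held SHR 2-1 with WKY 1-5, 4-1 and 4-2, and slide 3 held WKY 1-2 and 1-3. Both strains met only on slide 2, so each called gene is also given there, as SHR 2-1 against 3 WKY arrays. The lone SHR array is then assumed to vary like the WKY arrays. The slide as a fixed block over all arrays gives the same estimate. SHR 3-3 stood apart, with 420 genes lower by 2-fold or more than in the rest of its strain, against 31 to 45 for the 4 others.

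Among the arachidonic acid epoxygenase families Cyp2j and Cyp2c, 10 genes were on the array, 9 were tested, 1 was lower and 0 were higher. Cyp2j10, a member of the rat Cyp2j cluster, had log2 signals of −3.80, −4.30, −4.34, −4.87 and −4.74 in SHR 2-1, 2-3, 3-1, 3-3 and 3-4. In WKY 1-2, 1-3, 1-5, 4-1 and 4-2 it had 1.49, 1.38, 0.56, 0.22 and 0.65. All SHR arrays lay more than 4 log2 units below the lowest WKY array, and within WKY the 2 arrays of slide 3 were the brightest. The probe was above background in 3 of 5 SHR arrays and all 5 WKY arrays. The difference was −5.27 ± 0.26 (SE, n = 5 and 5), 38.6-fold lower in SHR, with a 95% interval from −5.83 to −4.71 and an adjusted p of 1.36e-07 (limma). On 2 SHR arrays the signal was not above background, and with normexp the difference was −3.57 (adjusted p 1.68e-06). Within slide 2 it was −4.28 (adjusted p 0.00102).

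The change at Cyp2j10 was not shared by the Cyp2j genes measured beside it. Cyp2j4, of the same cluster and the second gene on one side in the RefSeq gene order, differed by 0.07 ± 0.10 (SE) with an adjusted p of 0.747. Hook1, which encodes a cargo adaptor of the dynein motor and is the second gene on the other side, differed by 0.04 (adjusted p 0.86). The genes between, LOC100912642 and Cyp2j16, were not analysed here. Cyp2j3, whose enzyme makes arachidonic acid epoxides, was at −2.24, −2.22, −1.78, −2.32 and −2.26 in SHR and at −2.27, −2.50, −2.35, −2.34 and −2.31 in WKY. Its strains overlapped and its difference was 0.19 ± 0.11 (SE). The second probes of Cyp2j3 and Cyp2j4 gave 0.17 and −0.13, neither of them past the threshold.

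The RefSeq promoter window of Cyp2j10 (GRCr8, 300 bases, the last 50 counted from +1) is shown because this gene had the largest strain difference of the family. It lies at chr5:116110760-116111059 on the minus strand and is written 5′ to 3′ in the direction of the gene. Capitals mark GGGCGG, the Sp1 box, at −120 to −115, and ATTGG, the CCAAT box read on the other strand, at −102 to −98. For this gene +1 is not the start in the gene table: the gene starts 105 bases before it, so the ATTGG letters lie inside the annotated gene.

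Cyp2j10: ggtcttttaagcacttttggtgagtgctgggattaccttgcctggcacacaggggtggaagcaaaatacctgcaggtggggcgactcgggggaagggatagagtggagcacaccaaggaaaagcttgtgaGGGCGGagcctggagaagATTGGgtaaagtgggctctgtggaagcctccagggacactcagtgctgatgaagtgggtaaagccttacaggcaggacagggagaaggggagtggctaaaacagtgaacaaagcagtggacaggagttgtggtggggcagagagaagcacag

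Both motifs were searched on both strands. They are common: 33.1% of the 33469 promoter windows of the same length hold GGGCGG and 37.5% hold CCAAT. The TATA box letters were not found in this window. A match describes the reference sequence only, and the sequence of neither strain was read here.

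The Cyp2c genes showed no difference past the threshold. Cyp2c7, a retinoid hydroxylase of rat liver, had the largest difference among them, −0.24 ± 0.14 (SE), while its second probe gave 0.37, of the opposite sign. On that second probe WKY 1-5 stood apart at −4.81. The other WKY arrays read −3.49 to −3.20 there and the SHR arrays −3.32 to −3.11. The last Cyp2c7 probe was above background on 1 array of each strain and was not tested. Cyp2c13 differed by 0.17 ± 0.20 (SE), and Cyp2c11, the male-specific form of rat liver, by 0.11 ± 0.12 (SE). Cyp2c22, Cyp2c12 and Cyp2c6v1 lay between −0.08 and 0.04. Cyp2c23, an arachidonic acid epoxygenase of rat kidney, was above background on 1 SHR array and 0 WKY arrays and was not tested.

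Of the Cyp4 family of fatty acid hydroxylases, 14 genes had a named probe and all 14 were tested. One was lower, 1 was higher, and they neighbour each other on chromosome 7 in the RefSeq gene order. Cyp4f17 was at −4.91, −4.65, −4.62, −4.88 and −5.02 in SHR 2-1, 2-3, 3-1, 3-3 and 3-4. In WKY 1-2, 1-3, 1-5, 4-1 and 4-2 it was at −2.86, −3.07, −2.85, −2.89 and −2.84. The strains did not overlap, and each was tight. The difference was −1.91 ± 0.10 (SE, n = 5 and 5), 3.76-fold lower in SHR (adjusted p 1.96e-07, limma). Within slide 2 it was −2.05 (adjusted p 0.00556). The probe was above background in 3 of 5 SHR arrays, and with another background correction (normexp) the difference shrank to −0.67 while still passing.

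Cyp4f5, which lies next to Cyp4f17, went the other way. It was at −0.53, −0.60, −0.44, −0.57 and −0.36 in SHR and at −1.33, −1.42, −1.18, −1.22 and −1.30 in WKY, in the same array order. Every SHR array was above every WKY array. The difference was 0.79 ± 0.08 (SE, n = 5 and 5), 1.73-fold higher in SHR (adjusted p 0.000152, limma). Within slide 2 the size was nearly the same, 0.70, but the test did not pass there (adjusted p 0.211) or with the slide as a block (adjusted p 0.157). The other genes next to the pair, Cyp4f39, Cyp4f37, Pglyrp2 and Ftl1l5, were not analysed here.

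The RefSeq promoter window of Cyp4f5 (GRCr8, chr7:12194387-12194686, plus strand) is shown for the P450 gene that was higher in SHR, with the same length and counting. Capitals mark GCGTG, the core bound by the aryl hydrocarbon receptor, at −167 to −163, and ATTGG, the CCAAT box on the other strand, at −54 to −50. The gene table starts this gene 70 bases before +1, so the ATTGG letters lie inside the annotated gene. GCGTG occurs on either strand in 29.7% of the promoter windows. The table used here pairs no window with Cyp4f17.

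Cyp4f5: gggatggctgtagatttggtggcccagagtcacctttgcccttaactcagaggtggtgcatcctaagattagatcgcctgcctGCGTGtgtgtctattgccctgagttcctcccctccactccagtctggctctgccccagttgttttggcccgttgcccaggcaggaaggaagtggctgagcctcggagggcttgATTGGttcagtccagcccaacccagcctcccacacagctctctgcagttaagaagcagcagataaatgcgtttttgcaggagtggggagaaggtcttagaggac

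The rest of the Cyp4 family did not pass. Cyp4a1, a fatty acid hydroxylase induced by the receptor PPAR alpha in liver, was at −1.70, −1.51, −1.60, −1.60 and −1.51 in SHR and at 0.21, −0.07, −0.99, −1.26 and −1.54 in WKY. The SHR arrays lay close together, whereas in WKY the 2 arrays of slide 3 were the highest and WKY 4-2 was level with SHR. The difference was −0.85 ± 0.29 (SE) and did not pass (adjusted p 0.113). Cyp4a8 differed by 0.26 ± 0.21 (SE) and its second probe by −0.14, and Cyp4f4 by −0.22 ± 0.17 (SE). Cyp4a2 and Cyp4a3, which are among the main arachidonic acid hydroxylases of rat kidney, differed by 0.15 and 0.03. The other 7, Cyp4b1, Cyp4f1, Cyp4f6, Cyp4f18, Cyp4f40, Cyp4v3 and Cyp4x1, lay between −0.16 and 0.04. Cyp4 genes are near-identical in places, as are Cyp2c and Cyp2d genes, and how far a probe also binds a related transcript was not tested.

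**Figure D2:**
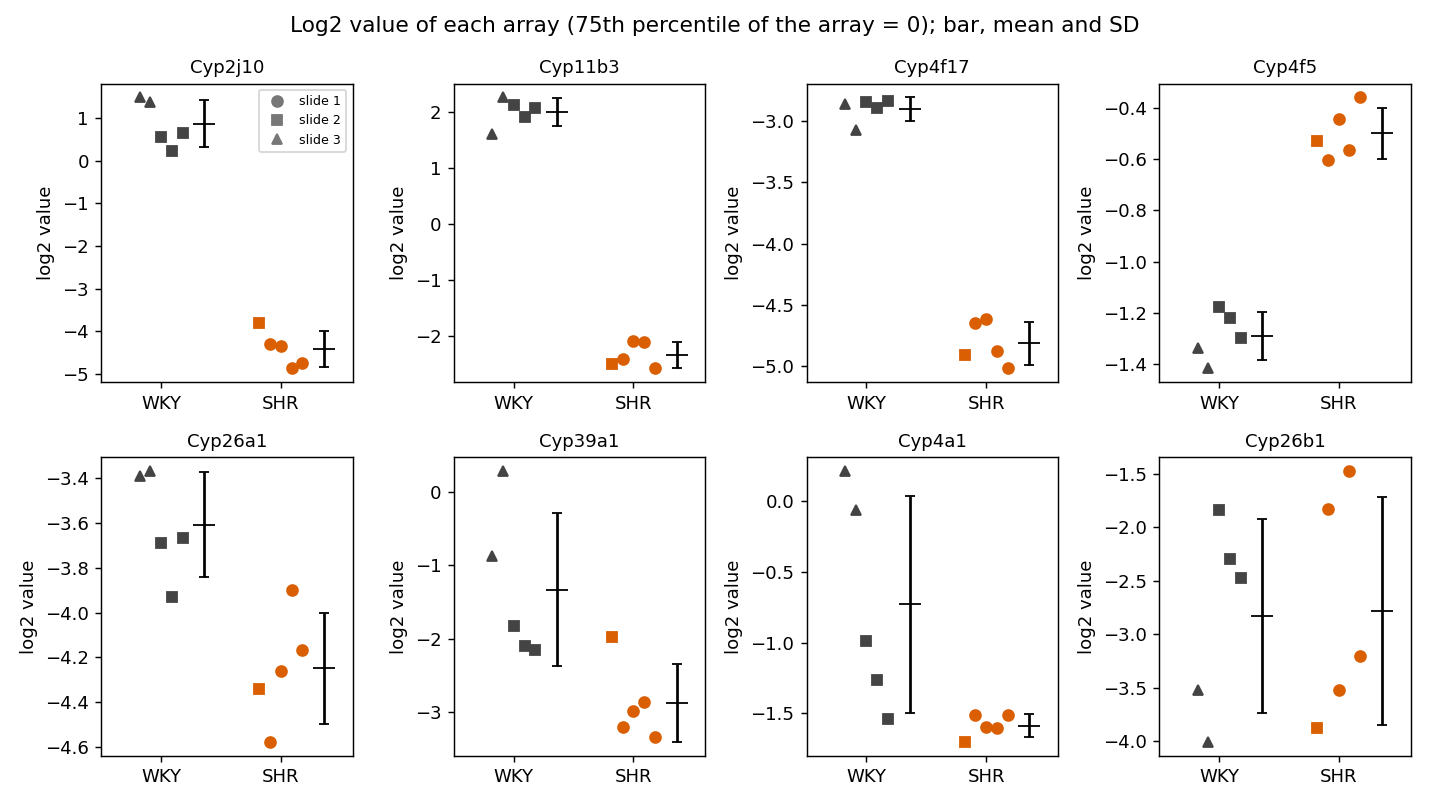
Log2 signal relative to the array's 75th percentile (y axis) of the 5 called genes and of further P450 genes described in the text, one point for each array, WKY in grey and SHR in orange, with marker shapes for the slides and bars for the mean ± SD of 5 arrays. SHR and WKY do not overlap for Cyp2j10, Cyp11b3, Cyp4f17 and Cyp4f5, and they do for Cyp26a1, where SHR 3-3 (−3.90) lies above WKY 4-1 (−3.93).

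Among the steroid hormone families Cyp11, Cyp17 and Cyp21, 6 genes were on the array and tested, 1 was lower and 0 were higher. Cyp11b3 belongs to the rat group of corticosterone and aldosterone synthase genes and is known from the adrenal gland of young rats. It was at −2.50, −2.41, −2.08, −2.10 and −2.57 in SHR 2-1, 2-3, 3-1, 3-3 and 3-4, and at 1.61, 2.26, 2.12, 1.91 and 2.07 in WKY 1-2, 1-3, 1-5, 4-1 and 4-2. The strains were far apart and each was tight. The difference was −4.33 ± 0.14 (SE, n = 5 and 5), 20.1-fold lower in SHR, with a 95% interval from −4.63 to −4.03 (adjusted p 1.79e-09, limma). Within slide 2 it was −4.53 (adjusted p 0.000423).

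A second probe for the same Cyp11b3 transcript did not show this difference. It read −2.05, −2.28, −2.47, −1.89 and −2.14 in SHR and −1.72, −1.75, −2.07, −2.16 and −2.41 in WKY, above background on all 10 arrays. The strains overlapped, and the difference was −0.14 ± 0.15 (SE) with an adjusted p of 0.631 over all probes. The statement that Cyp11b3 was lower therefore holds for 1 of its 2 probes. Probe sequences were not used here, so which part of the transcript each probe reads is not given.

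**Figure D3:**
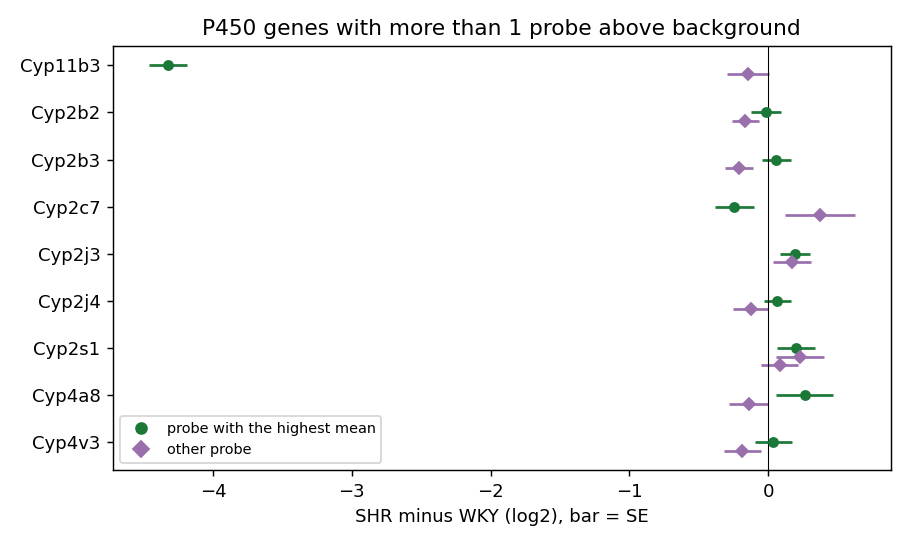
Strain difference (SHR minus WKY, log2 scale, x axis, with standard errors) of every tested probe of the 9 P450 genes that have several probes; green circles are the probes that stand for the gene and purple diamonds the other probes. The pair of Cyp11b3 probes lies at −4.33 and −0.14, whereas the other genes' probes all lie between −0.24 and 0.37.

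The neighbours of Cyp11b3 did not follow it. Cyp11b1, the enzyme of the last step of corticosterone synthesis, was at −2.75, −2.85, −2.87, −2.70 and −2.69 in SHR and at −1.94, −2.24, −2.65, −2.74 and −2.98 in WKY. The 2 WKY arrays of slide 3 were the highest and the others overlapped with SHR, for a difference of −0.26 ± 0.17 (SE, adjusted p 0.401). Cyp11b2, aldosterone synthase, differed by −0.28 ± 0.10 (SE, adjusted p 0.133). The nearby LOC134479607 and Ly6m were not analysed here. Cyp17a1, which makes androgen precursors, differed by −0.24 ± 0.14 (SE), and Cyp11a1, which starts steroid synthesis from cholesterol, by 0.21 ± 0.09 (SE). Cyp21a1, the steroid hydroxylase on the way to corticosterone, differed by −0.06 ± 0.19 (SE).

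Markers of the adrenal cortex and other steroid-making cells were read beside Cyp11b3. All 9 listed genes, Star, Nr5a1, Mc2r, Hsd3b1, Hsd3b2, Cyp11a1, Fdx1, Akr1b7 and Nr0b1, were above background on all 10 arrays, 0 passed the test and their median difference was 0.06. Of the 15168 named genes, 14184 were also above background on all 10 arrays, so this alone says little about use in the gland. In Hsd3b1, a steroid dehydrogenase, every SHR array lay above every WKY array (0.39 ± 0.12 SE, adjusted p 0.0967). The mean log2 signal of the 9 markers ran from −2.40 to −2.20 over the SHR arrays and from −2.46 to −2.27 over the WKY arrays.

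Retinoic acid is broken down by the Cyp26 enzymes, of which 2 were measured. Cyp26a1, the classical retinoic acid hydroxylase, was at −4.34, −4.58, −4.26, −3.90 and −4.17 in SHR and at −3.39, −3.37, −3.69, −3.93 and −3.67 in WKY. The strains overlapped by the one pair SHR 3-3 and WKY 4-1. The difference was −0.64 ± 0.14 (SE, n = 5 and 5), 1.56-fold lower in SHR (adjusted p 0.0235, limma). Among the called genes Cyp26a1 was the least firm when arrays or processing changed, second probes aside. Leaving out SHR 2-3, WKY 1-2 or WKY 1-3 took it past 0.05 (adjusted p 0.0529, 0.0687 and 0.0698). So did leaving out both arrays of slide 3 (−0.49, adjusted p 0.207), the slide as a block (−0.58, adjusted p 0.897) and slide 2 alone (−0.58, adjusted p 0.429). With normexp the difference was −0.23 (adjusted p 0.0824).

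The RefSeq promoter window of Cyp26a1 (GRCr8, chr1:244883572-244883871, plus strand) is shown because this gene is a textbook target of retinoic acid, and here +1 is the start in the gene table. Capitals mark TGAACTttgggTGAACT at −92 to −76, which on the other strand is AGTTCANNNNNAGTTCA, the retinoic acid response element known from Cyp26a1 promoters, and TATAAA at −31 to −26. Only 3 of the 33469 promoter windows (0.00896%) hold the element in these letters, which were taken from knowledge of this gene, and 14.2% hold TATAAA. The element was found in 1 of the 53 P450 genes that have a window. GGGCGG, the Sp1 box, also occurs in the Cyp26a1 window, at −40 to −35 and at 3 to 8. GCGTG occurs there at −21 to −17 and at 37 to 41, and neither motif is put in capitals.

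Cyp26a1: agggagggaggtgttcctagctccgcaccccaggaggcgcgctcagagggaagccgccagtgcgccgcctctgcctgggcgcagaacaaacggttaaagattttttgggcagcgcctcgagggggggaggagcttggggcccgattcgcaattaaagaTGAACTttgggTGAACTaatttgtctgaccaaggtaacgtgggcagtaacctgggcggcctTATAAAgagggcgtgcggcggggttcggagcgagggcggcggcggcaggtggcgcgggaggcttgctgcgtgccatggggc

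Cyp26b1, the other retinoic acid hydroxylase measured, varied far more between animals than between strains. It was at −3.88, −1.83, −3.52, −1.48 and −3.20 in SHR and at −3.52, −4.01, −1.84, −2.30 and −2.48 in WKY. Low and high arrays occurred in both strains, and the WKY arrays of slide 3 were the low ones. The difference was 0.05 ± 0.51 (SE), with a 95% interval from −1.06 to 1.16. Next to Cyp26a1 in the RefSeq order, Exoc6, a subunit of the exocyst that tethers vesicles, differed by −0.26 (adjusted p 0.145). Cyp26c1, Rps12l6 and Myof were not analysed here.

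Of the vitamin D enzymes, Cyp24a1, which inactivates the hormone, was at −4.39, −4.69, −4.32, −4.30 and −4.22 in SHR and at −3.86, −4.08, −4.30, −3.89 and −3.84 in WKY. Only WKY 1-5 reached the SHR range. The difference was −0.39 ± 0.12 (SE) and did not pass (adjusted p 0.0812), nor did it under 21 of the 24 alternatives, and with normexp it was −0.09 (adjusted p 0.34). It passed without WKY 1-5 (−0.47, adjusted p 0.0436), with array weights (−0.43, adjusted p 0.0461) and with the slide as a random block (−0.39, adjusted p 0.00757). The last setting, also given for genes below, raised the lower calls over all genes from 419 to 2101. Cyp27b1, which activates the hormone, differed by 0.14 ± 0.09 (SE). Cyp2r1, which makes its circulating precursor in liver, was above background on 3 SHR arrays and 0 WKY arrays and was not tested. It read −5.67, −5.09, −5.13, −4.97 and −4.32 in SHR and −7.09, −5.60, −5.92, −5.59 and −5.97 in WKY, so SHR 2-1 lay within the WKY range.

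Of 5 genes for bile acid and oxysterol enzymes on the array, 4 were tested, none passed and all 4 differences were negative, with a median of −0.40. At an unadjusted p under 0.05, 3 of these 4 (Cyp39a1, Cyp8b1 and Cyp27a1) and 16 of all 60 tested members (26.7%) passed, against 20.3% of all tested genes. Cyp39a1, an oxysterol hydroxylase, was at −1.98, −3.20, −2.98, −2.86 and −3.34 in SHR and at −0.87, 0.28, −1.82, −2.09 and −2.15 in WKY. SHR 2-1, the one SHR array of slide 2, lay among the 3 WKY arrays of that slide, and the WKY arrays of slide 3 were far above both. Its difference was −1.54 ± 0.43 (SE, adjusted p 0.0631), but 0.04 within slide 2. It passed without SHR 2-1 (−1.76, adjusted p 0.0396) and with the slide as a random block (−1.66, adjusted p 0.00609). Strain and slide cannot be told apart for this gene, nor fully for the others, since only slide 2 held both strains. Cyp2d4, Cyp3a9, Cyp2d3, Cyp11b1 and Cyp17a1, negative over all arrays, were also positive within slide 2 (0.11, 0.11, 0.18, 0.04 and 0.04). Within slide 2, 23 of the 60 members were negative, against 40 over all arrays.

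Cyp8b1, the sterol hydroxylase that sets the kind of bile acid made, differed by −0.45 ± 0.16 (SE, adjusted p 0.146). Cyp27a1, a mitochondrial sterol hydroxylase, differed by −0.34 ± 0.12 (SE, adjusted p 0.123) and passed only when SHR 3-1 was left out (−0.45, adjusted p 0.017), with array weights (−0.35, adjusted p 0.0477) or with the slide as a random block (−0.34, adjusted p 0.0148). Cyp7b1, another oxysterol hydroxylase, differed by −0.17 ± 0.24 (SE), and SHR 3-3 lay 1.06 under its strain's other arrays. Cyp7a1, the rate-limiting enzyme of bile acid synthesis in liver, was above background on 0 arrays.

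In the families best known for drugs and foreign chemicals, 26 genes were on the array, 22 were tested and none passed. Of the Cyp1 genes, Cyp1a1 and Cyp1b1, which answer to the aryl hydrocarbon receptor, differed by 0.05 ± 0.13 and −0.01 ± 0.11 (SE). Cyp1a2 was above background on 0 arrays. The 3 tested Cyp3 genes, Cyp3a9, Cyp3a62 and Cyp3a18, differed by −0.39 ± 0.15, −0.22 ± 0.22 and −0.16 ± 0.12 (SE). Cyp3a2, a male form of rat liver, was above background on 0 arrays, and Cyp3a23-3a1 on 1 array of each strain.

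The other Cyp2 genes, 17 tested of 18, had a median difference of −0.18 and a range from −0.52 to 0.20. Cyp2d4, a form also known from brain, was at −0.36, −0.95, −1.12, −0.63 and −0.97 in SHR and at 0.20, −0.23, −0.39, −0.80 and −0.22 in WKY. The strains overlapped, and the difference of −0.52 ± 0.18 (SE) did not pass (adjusted p 0.133). Cyp2f4, which oxidises naphthalene in lung, differed by −0.41 ± 0.26 (SE), and SHR 3-3 lay 1.32 under the mean of its strain's other 4 arrays. Cyp2d3 differed by −0.39 ± 0.20 (SE). The remaining 14 (Cyp2a1, Cyp2a2, Cyp2a3, Cyp2b2, Cyp2b3, Cyp2b15, Cyp2b21, Cyp2d1, Cyp2d2, Cyp2d5, Cyp2e1, Cyp2g1, Cyp2s1 and Cyp2t1) lay between −0.28 and 0.20. Cyp2b12, known from sebaceous glands, was above background on 1 WKY array. Cyp20a1, a P450 whose substrate is not settled, differed by 0.01 ± 0.15 (SE).

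Outside these 67, 3 further P450 enzymes have symbols that the naming rule did not take, and none passed. Cyp51, which makes cholesterol precursors, differed by −0.19 ± 0.34 (SE). Ptgis, prostacyclin synthase, differed by 0.06 ± 0.10 (SE). Tbxas1, thromboxane synthase, was at −2.04, −1.90, −1.80, −3.57 and −2.06 in SHR and at −1.53, −1.41, −1.70, −1.24 and −1.59 in WKY. Its strains did not overlap and SHR 3-3 was the lowest by more than a log2 unit, for a difference of −0.78 ± 0.28 (SE) that did not pass (adjusted p 0.141).

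Lists of genes that work with the P450 enzymes, 7 in all, were read from the same fit. Of the 12 electron donors and partners, 0 were lower and 0 higher, with a median difference of 0.00 and Pgrmc1, a haem-binding partner of P450 enzymes, the furthest at −0.25 ± 0.15 (SE). Of the 22 measured receptors and factors that control P450 genes, 0 passed, with a median of −0.04. The furthest was Nfe2l2, the main antioxidant response factor, at −0.39 ± 0.20 (SE). Nr3c1, the glucocorticoid receptor, missed the threshold with SHR below WKY on all arrays (−0.36 ± 0.09 SE, adjusted p 0.0516). Rxrb, another receptor of the list, also missed it, with SHR above WKY on all arrays (0.29 ± 0.11 SE, limma adjusted p 0.157). The 24 other steroid enzymes also had 0 calls, a median of −0.07 and Hsd17b7 furthest at −0.49 ± 0.25 (SE). Among 21 conjugating and related drug enzymes on the array, 18 were tested and 0 passed, with a median of 0.02 and Sult1c3, a sulfotransferase, furthest at −0.83 ± 0.62 (SE).

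In the remaining 3 lists 4 genes passed, where over all tested genes 2.85% were lower and 1.51% higher. Of the 13 genes of haem synthesis and breakdown, which supply and remove the P450 cofactor, 2 were lower and 0 higher, with a median of −0.05. Cpox, coproporphyrinogen oxidase of haem synthesis, was at −1.34, −1.06, −1.56, −1.22 and −1.48 in SHR and at −0.58, −0.20, −0.61, −0.01 and −0.22 in WKY. The strains did not overlap, and the difference was −1.01 ± 0.14 (SE), 2.01-fold lower in SHR (adjusted p 0.00104, limma). Within slide 2 it was −1.06 and did not pass (adjusted p 0.242). Hmox2, the constitutive haem oxygenase, was lower by −0.61 ± 0.12 (SE, adjusted p 0.0113), without overlap, and at −0.57 within slide 2 (adjusted p 0.361). It also did not pass without the arrays of slide 3 (adjusted p 0.0596).

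Of the 5 epoxide hydrolases, which open the epoxides that Cyp2j and Cyp2c enzymes make, 1 was higher and 0 lower. Ephx2, the soluble epoxide hydrolase, was at −2.83, −2.93, −2.64, −2.88 and −2.70 in SHR and at −3.21, −3.40, −3.17, −3.41 and −3.23 in WKY. Every SHR array lay above every WKY array, for a difference of 0.49 ± 0.09 (SE), 1.40-fold higher in SHR (adjusted p 0.00903, limma). Within slide 2 it was 0.44 (adjusted p 0.59), and without the arrays of slide 3 it was 0.47 (adjusted p 0.0832). Of the 21 other arachidonic acid enzymes 1 was lower, Ptgs1, the constitutive cyclooxygenase, at −0.51 ± 0.12 (SE, adjusted p 0.0372). Ptgs1 lost the call when SHR 2-3, SHR 3-1 or any single WKY array was left out (adjusted p up to 0.1), and with the mean of its probes the difference was −0.20 (adjusted p 0.333). Normexp and leaving out the arrays of slide 3 also took the call away, and Ptgs1 passed under 12 of 24 alternatives.

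**Figure D4:**
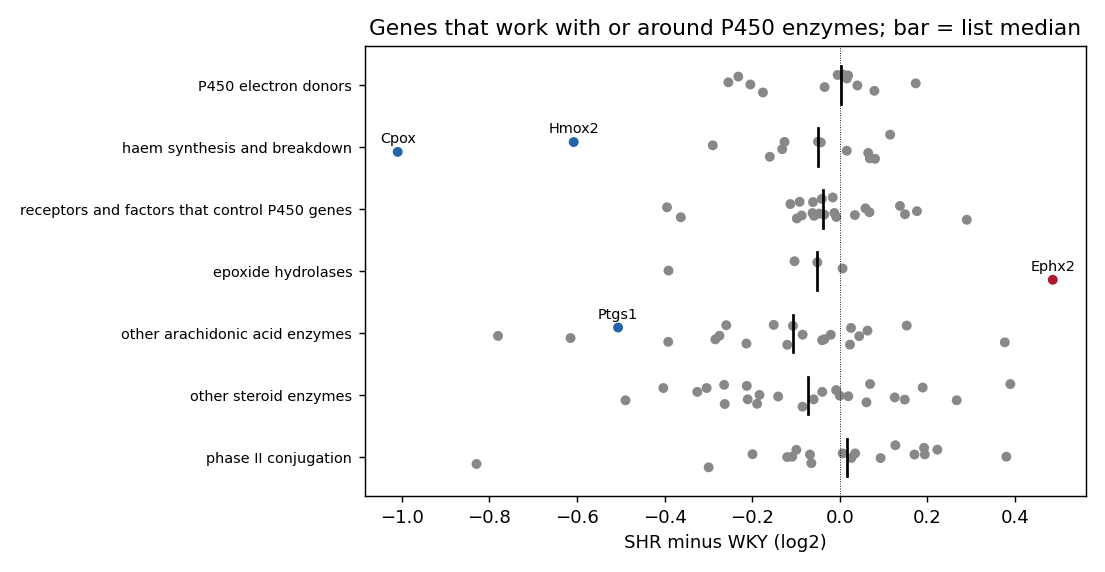
Strain difference (SHR minus WKY, log2 scale) of every tested gene in the 7 lists of genes that work with P450 enzymes; each point is 1 gene, blue (lower) or red (higher) where limma's adjusted p was under 0.05 and grey otherwise, and black bars mark list medians. Cpox (−1.01), Hmox2 (−0.61), Ptgs1 (−0.51) and Ephx2 (0.49) passed, and the medians lie between −0.11 and 0.02.

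Markers of cell types were read beside these results. Of the gland's own acinar and duct markers 10 of 10 measured were above background on every array, like 14184 of all 15168 named genes. Of these markers 1, Smgc, a secreted protein of the gland, was lower in SHR (−4.10). Their mean log2 signal, Smgc included, ran from 2.03 to 3.05 in SHR and from 3.12 to 3.28 in WKY, while the median difference of the list was 0.13 and 4 of the 10 differences were negative. Over all tested genes 53.4% had a negative difference, 2.85% were called lower and 1.51% higher. All 9 macrophage markers had negative differences and 2 passed as lower, Cd68 (−0.97) and Aif1 (−0.81). The mean of that list ran from −1.02 to −0.02 in SHR and from −0.15 to 0.37 in WKY. Of 12 hepatocyte markers 1 was lower (Serpina1, −1.18) and 1 higher (Tf, 0.70), the list mean ran from −2.79 to −2.55 in SHR and from −2.71 to −2.37 in WKY, and Alb was above background on 5 of 10 arrays. None of the measured markers of adipocytes (7), lymph node B and T cells (6), skeletal muscle (6 tested) or endothelium (5) passed. The part of these cell types in the P450 differences was not tested.

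In 15 of the 60 tested members (25%) both WKY arrays of slide 3 lay above the 3 WKY arrays of slide 2, against 14.4% of all tested genes. In 5 members (8.33%) both lay below, against 7.67% of all tested genes. The widest gaps, slide 3 minus slide 2 within WKY, were 1.73 for Cyp39a1, −1.56 for Cyp26b1, 1.34 for Cyp4a1, 0.96 for Cyp2j10 and 0.70 for Cyp11b1. SHR 2-1 lay within the range of the WKY arrays of its slide in 25 members, which was not counted over all tested genes. SHR 3-3 was 2-fold or more below the other SHR arrays in 2 members (Cyp2f4 and Cyp7b1) and above in 1 (Cyp26b1, by 1.63). Leaving it out kept the same 5 members called.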

How the data were processed

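Trizol RNA was amplified and Cy3-labelled, per the labels' protocols. Per the file headers, the scans were read with Agilent Feature Extraction 11.0.1.1, and the authors' deposited processed signal is a background-subtracted intensity on a linear scale, with no normalisation across arrays. Log2 values from the authors' deposited table served as an alternative. Its columns share a median of 7.19 and correlate at 0.9992 or more across probes with the log2 signal of the same array. How it was made is not given in these sources.

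Log2 intensities were reduced by each array's 75th percentile over non-control probes. Spots marked as outliers were set to missing and spots of a probe averaged. Probes above background on at least 5 of 10 arrays were kept, 29266 of 30367. Names came from RefSeq accessions in the GRCr8 gene table. They named 18005 probes, and 12362 stayed unnamed. The brightest probe stood for a gene. SHR was compared with WKY with limma 3.58.1 (lmFit, eBayes, no covariates) in R 4.3.3 over 14711 genes, with a two-sided test, Benjamini-Hochberg adjustment and a threshold of 0.05. The fit was tested on simulated data. The number of arrays limits the precision.

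All called members are described with each array, then up to 3 further members of each role group by size of difference, and in each list the members that passed or 1 as a value. Gene neighbours came from the RefSeq gene order; coordinates are given only for promoter windows. The members and lists were chosen with earlier results of these data known. Alternatives were other normalisations, filters and probe rules, slide blocks, array weights, and leaving out each array. Leaving out both arrays of slide 3 was chosen after seeing the data. Normexp (offset 50) used the median spot signal, since no mean signal column was in the files.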

Additional observations from a re-analysis of the deposited data

Results flagged for a closer look

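In 10 of 120 groups of 5 arrays (a tested member in 1 strain), 1 array stood far from the other 4 of its strain, where chance flags about 1 in 20, or 6. Array WKY 1-5 was the lowest of its strain for Cyp2d2 (−3.95, next −3.49), Cyp2a3 (−2.88, next −2.50), Cyp2a2 (−3.20, next −3.05) and Cyp3a62 (−3.48, next −2.87). Among the other WKY arrays, WKY 1-2 was lowest for Cyp2c12 (−4.63, next −4.41) and WKY 1-3 for Cyp4f17 (−3.07, next −2.89), still above every SHR array. In SHR, the highest values were those of SHR 3-4 for Cyp4b1 (−1.29, next −2.05), SHR 3-1 for Cyp2j3 (−1.78, next −2.22) and SHR 3-3 for Cyp2t1 (−0.22, next −0.71). SHR 2-3 was the lowest for Cyp2b15 (−2.80, next −2.59). Of these genes only Cyp4f17 was called between strains.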

How the results depend on the processing

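No called gene reversed under the alternatives run. The count of lower members was 4 and of higher members 1. Requiring signal above background on all 10 arrays left 2 lower members, since Cyp2j10 and Cyp4f17 then have no value. The narrow reading of the symbols left 2 lower, since Cyp11b3 and Cyp26a1 fall outside it. The slide as a fixed block, and slide 2 alone, each left 3 lower and 0 higher (limma). The slide as a random block gave 15 lower and 2 higher, with an estimated correlation within slides of −0.192; over all genes the calls then went from 419 to 2101 lower and from 222 to 1350 higher. A negative correlation within slides lowers the standard error of a difference between slides, and strain here largely follows slide. The calls gained with this setting are therefore not read as strain differences. Leaving out 1 array at a time gave 3 to 5 lower and 1 higher. Cyp2j10 and Cyp4f17 passed under every alternative that gave them a value, and Cyp11b3 under all but its second probe. Cyp2j10, Cyp4f17, Cyp4f5 and Cyp26a1 had 1 probe each, so a check on another probe was not possible for them. Cyp2j10 ranged from −5.43 to −3.57.

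The share of lower among all calls was 65.4%, against 55.6% with normexp, 54.5% with quantile normalisation, 53.5% with median scaling and 50.5% with the authors' values, and the members' split was then 3 to 1, 3 to 1, 4 to 1 and 4 to 1. With the slide as a fixed block 32 genes were lower and 12 higher. No paired analysis was possible because the strains share no replicate numbers. Precision is limited by 5 arrays a strain, by 7 members not above background on enough arrays, and by low signal in SHR for Cyp2j10 and Cyp4f17.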
